A study of Mus musculus with 2 samples.

Results

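The 9 genes described here govern where lymphocytes go and whether they stay: S1pr1, S1pr5, Klf2, Ccr7, Cxcr4, Cx3cr1, Cd69, Itga1 and Itga2. They were chosen by symbol, and all 9 were found among the 55357 features measured in each of 2 mouse single-cell RNA libraries. Their levels are given in natural killer (NK), CD8 T, CD4 T and regulatory T cells, with macrophages and other cells as background. The series compares a library labelled WT, with the genotype RUNX3 wt, and a library labelled KO, with the genotype RUNX3 ko, both labelled colon. The strain, age, sex and number of animals, the way Runx3 was deleted and any treatment are not stated in the labels. With 1 library per genotype there is no replicate, so no test was possible, and each difference below separates 2 libraries rather than 2 genotypes.

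Lymphocytes leave tissue along a gradient of sphingosine 1-phosphate (S1P), which T cells sense with the receptor S1PR1 and NK cells mainly with S1PR5. The transcription factor KLF2 drives S1pr1 and keeps T cells quiescent, whereas the early activation protein CD69 binds S1PR1 and removes it from the surface. CCR7 guides naive T cells and mature dendritic cells to lymph nodes, CXCR4 is the receptor for CXCL12, and CX3CR1 is the receptor for fractalkine on macrophages and some effector lymphocytes. Itga1 and Itga2 encode CD49a and CD49b, collagen-binding integrin chains that pair with the beta 1 chain. In mouse tissue CD49a marks resident type 1 innate lymphoid cells and CD49b marks conventional NK cells.

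The promoters of Klf2, Cxcr4 and Cx3cr1 are shown because the first pair was higher in the library labelled KO in all 4 lymphocyte classes and because Cx3cr1 alone among the matched members holds a RUNX motif. Each is the 250 bases before the gene start in RefSeq (build GRCm38.p6), for Klf2 at chr8:72318812-72319061 on the plus strand, for Cxcr4 at chr1:128592300-128592549 on the minus strand and for Cx3cr1 at chr9:120068297-120068546 on the minus strand. Capitals mark matches on either strand to the RUNX motif TGTGGT or TGCGGT and to the KLF motif CACCC, which do not overlap here.
Klf2: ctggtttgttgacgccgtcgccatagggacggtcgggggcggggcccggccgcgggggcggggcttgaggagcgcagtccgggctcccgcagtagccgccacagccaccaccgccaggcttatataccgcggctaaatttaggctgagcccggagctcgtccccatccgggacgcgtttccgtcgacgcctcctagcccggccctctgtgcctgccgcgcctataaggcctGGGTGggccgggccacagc
Cxcr4: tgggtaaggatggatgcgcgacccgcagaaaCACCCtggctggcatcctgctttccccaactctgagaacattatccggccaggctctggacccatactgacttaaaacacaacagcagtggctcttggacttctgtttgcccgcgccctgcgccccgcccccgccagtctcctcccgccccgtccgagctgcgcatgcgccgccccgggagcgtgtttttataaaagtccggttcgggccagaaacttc
Cx3cr1: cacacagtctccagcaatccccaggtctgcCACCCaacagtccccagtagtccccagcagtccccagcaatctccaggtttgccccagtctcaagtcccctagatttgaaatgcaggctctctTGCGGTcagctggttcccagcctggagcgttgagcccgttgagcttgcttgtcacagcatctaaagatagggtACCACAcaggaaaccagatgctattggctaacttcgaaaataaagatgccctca
RefSeq gave a promoter for 6 of the 9 genes, these 3 with S1pr5, Itga1 and Itga2. The RUNX motif was in 1 of the 6, in Cx3cr1, at positions -127 and -54 from the gene start, and in 18.6% of all 32851 promoters of this length. The KLF motif was in all 6 and in 52.0% of all promoters. These matches are letters in a window and were not measured as binding. The gene spans given below are from another annotation, GENCODE M21, whose gene starts can differ from those of RefSeq. By that annotation the end of the Klf2 window, with its KLF match, lies past the gene start at chr8:72319033. The Cx3cr1 window, with its RUNX matches, lies within the annotated span of Cx3cr1.

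After filtering, 8343 WT cells and 5194 cells of the library labelled KO remained, with medians of 8281 and 9350.5 UMIs (unique molecules). Macrophages made up 55.1% and 58.0% of them. The epithelial transcripts Cdx2 and Krt20 had no UMI in either library, and Epcam had a UMI in 3.18% and 2.08% of all barcodes, so the defining markers of colon epithelium were near absent. Lymphocytes were gated by their markers: 240 and 81 NK cells, 621 and 148 CD8 T cells, 70 and 66 CD4 T cells, and 101 and 67 regulatory T cells, for WT and KO in that order. The NK gate did not part conventional NK cells from type 1 innate lymphoid cells, so NK cells below means the gate. Eomes had a UMI in 32.5% and 40.7% of its cells, Gzmc in 65.4% and 65.4%, and Trdc, which it did not exclude, in 14.6% and 11.1%. The gates split T cells by Cd4 and Cd8a, genes that RUNX3 is known to regulate, and 193 of 985 WT and 91 of 372 KO T cells fell in no class. Of the kept WT cells, 6629 had Y-linked RNA without Xist and 1 had Xist without Y-linked RNA. In the library labelled KO these numbers were 1250 and 2840, with 419 cells (8.07%) holding both, so RNA of both sexes was mixed there and sex differed between the libraries. The libraries shared 17 barcodes, 14 of them among kept cells.

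Runx3 itself (chr4:135120652-135177990 in mm10, GENCODE M21) was measured first. Its level is given, like every level below, in CPM, the UMIs of a gene per 1000000 UMIs of the class. In NK cells it was 705 CPM in WT and 860 CPM in the library labelled KO, a ratio of 1.22 (95% interval 1.10 to 1.35), and in CD8 T cells 555 and 551 CPM. In CD4 T cells it was 218 and 132 CPM, a ratio of 0.61 (0.40 to 0.90), and in regulatory T cells 108 in both. Macrophages had 216 and 169 CPM (0.78, 0.75 to 0.81), dendritic cells 231 and 307 CPM (1.33, 1.13 to 1.57), and all kept cells together 255 and 192 CPM (0.75, 0.73 to 0.77). Runx3 transcripts were thus present under the KO label in each of these classes, higher in some and lower in others. The labels do not say which part of Runx3 was deleted, so every direction below is that of the labels.

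**Figure D1:**
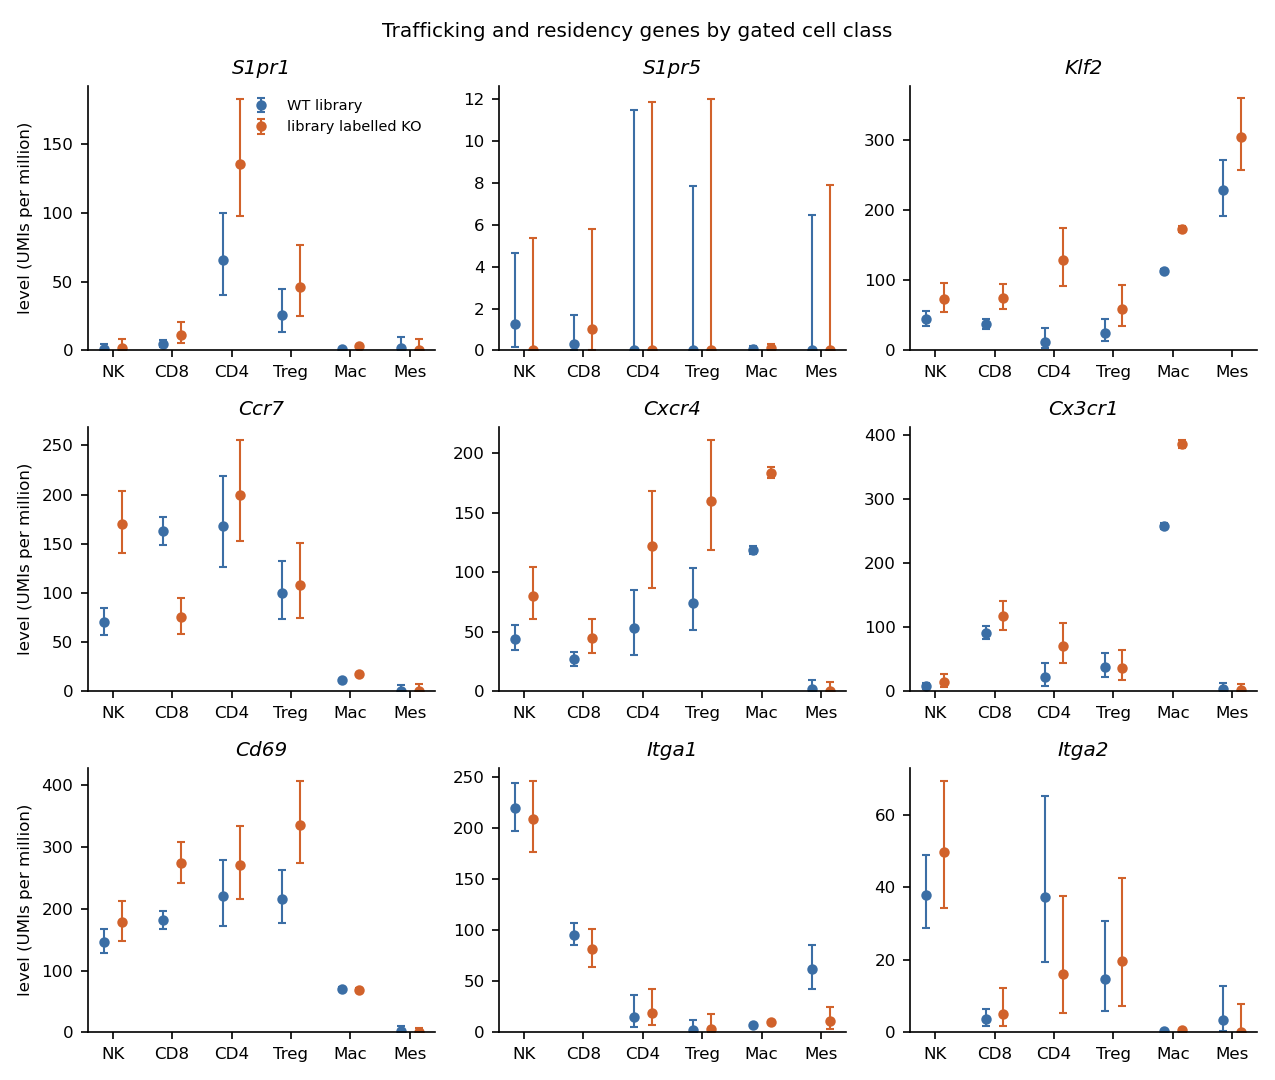
Level of each gene (vertical axes, CPM) in NK, CD8 T, CD4 T and regulatory T (Treg) cells, macrophages (Mac) and mesenchymal cells (Mes) of both libraries, with exact Poisson 95% intervals as bars. Itga1 was highest in NK cells, S1pr1 in CD4 T cells and Cx3cr1 in macrophages, and S1pr5 had at most 2 UMIs in any lymphocyte class.

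The S1P receptors were unevenly spread. S1pr1 (chr3:115710433-115715072) was a transcript of CD4 and regulatory T cells, at 65.3 CPM (95% interval 40.4 to 99.9) and 25.5 CPM (13.2 to 44.5) in WT. In the library labelled KO it stood at 135 CPM (97.4 to 183) and 45.7 CPM (24.97 to 76.6). CD8 T cells had 4.86 and 11.5 CPM, and NK cells 1.29 and 1.46 CPM from 2 and 1 UMIs. CD4 T cells thus stood above CD8 T and NK cells in both libraries with intervals that did not overlap, while CD4 and regulatory T cells overlapped in WT and not in KO. Of the other cells, macrophages had 1.26 and 3.10 CPM, and the 11 and 19 B cells had 129 and 32.5 CPM from few UMIs. S1pr5 (chr9:21242912-21248443), the egress receptor of NK cells, was detected in 2 of 240 WT NK cells and in 0 of 81 KO NK cells, where a count of 0 allows up to 3.70% of cells to hold a UMI, which is no limit on cells that express it. CD8 T cells held 1 UMI of it in each library, and CD4 and regulatory T cells held none, which, at 3 UMIs for a count of 0, allows up to 9.33 and 9.66 CPM in CD4 T cells of WT and KO. S1pr5 was therefore too rare to compare at this depth. Of 16 other genes of S1P synthesis, transport and signalling, 9 were measured in NK cells and 9 in CD8 T cells, meaning at least 20 UMIs over both libraries, with 6 in CD4 T and 7 in regulatory T cells. None of these reached a 2-fold difference between the libraries. In NK cells 0.721% of all genes passed 2-fold upward and 1.34% downward, and in CD8 T cells 0.445% and 1.45%. In CD4 T cells these shares were 3.05% and 4.58%, and in regulatory T cells 1.83% and 4.96%. A count of 0 is near these shares for lists so short.

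Klf2 (chr8:72319033-72321656) was higher under the KO label in all 4 lymphocyte classes. In NK cells it was 45.0 and 73.1 CPM, a ratio of 1.63 (95% interval 1.11 to 2.37, for counting error only, as all intervals here). In CD8 T cells it was 37.4 and 75.1 CPM, a ratio of 2.01 (1.48 to 2.71). In regulatory T cells it was 25.5 and 58.7 CPM, a ratio of 2.30 (1.05 to 5.24) from 12 and 18 UMIs. The widest gap was in CD4 T cells, at 12.4 and 129 CPM from 4 and 40 UMIs, a ratio of 10.3 (3.74 to 39.8). There 4 of 70 WT cells (5.71%) and 20 of 66 KO cells (30.3%) had a Klf2 UMI. After each cell was thinned to 1000 UMIs, these shares were 0% and 16.7%. Mesenchymal cells stood above the 4 classes, at 229 and 305 CPM. Macrophages had 113 and 173 CPM, also above them in WT, but in KO their interval (169 to 178) overlapped that of CD4 T cells (92.0 to 175), and the 19 KO B cells had 182 CPM. Macrophage markers in CD4 T cells stood at 3.42% and 4.17% of their level in macrophages. At those shares macrophage RNA would give 3.86 and 7.23 CPM of Klf2, and the measured levels were 3.22 and 17.8 times that. The gate capped these markers, which partly sets the shares, and the source of the Klf2 level was not tested.

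The Klf2 gap was sensitive to how cells were gated. With no limit on markers of other lineages, the CD4 T log2 ratio (with 5 CPM added to each level) fell from 2.94 to 0.58. With a stricter limit, which left 132 and 29 NK cells, the NK value of 0.64 became -0.93. In cells with Y-linked RNA only, CD4 T cells had a log2 ratio of 2.23. CD8 T cells of that kind had 37.0 and 45.1 CPM, and their log2 ratio of 0.92 became 0.25, while the KO cells with Xist only had 92.3 CPM. In the 20 such regulatory T cells with Y-linked RNA under the KO label no Klf2 UMI was found and the value was -2.56.

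In macrophages Klf2 was 1.54 times as high under the KO label (1.48 to 1.59), so the direction was shared by cells outside the lymphocyte gates. It was also 1.26 (0.94 to 1.67) in dendritic cells and 1.41 (0.98 to 2.03) in mature dendritic cells. Mesenchymal cells had a ratio of 1.33 (1.04 to 1.70). The exceptions were neutrophils, of which WT had 9 cells, with 2331 and 291 CPM. Beside them stand the immediate early and dissociation genes, whose summed level was 3707 and 3928 CPM in NK cells, 3255 and 3907 in CD8 T cells, 4007 and 5370 in CD4 T cells, 3619 and 3846 in regulatory T cells, and 10969 and 13020 in macrophages. Of the 15 genes of that list, 8 were higher under the KO label in NK, 12 in CD8 T, 14 in CD4 T and 7 of 13 measured in regulatory T cells. The median log2 ratio of the list in that order was 0.01, 0.27, 0.51 and 0.22, beside -0.03, -0.04, -0.01 and -0.03 over all measured genes. No share of all genes is given beside the counts of list genes that were higher, so nothing is read from those counts. The heat shock genes Hspa1a and Hspa1b were, in CD4 T cells with their widest Klf2 gap, at 9.33 and 161 CPM and at 6.22 and 116 CPM, from 3 and 50 and from 2 and 36 UMIs. In NK cells they went the other way, at 59.1 and 13.2 CPM and at 48.2 and 10.2 CPM. The part of cell handling in the Klf2 and Cxcr4 values was not tested.

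Cxcr4 (chr1:128588199-128592293) was higher under the KO label in each lymphocyte class. Its level was 44.4 and 80.4 CPM in NK cells, a ratio of 1.81 (1.25 to 2.62). CD8 T cells had 27.1 and 44.9 CPM, a ratio of 1.66 (1.12 to 2.41). CD4 T cells had 52.9 and 122 CPM, a ratio of 2.31 (1.27 to 4.37), and regulatory T cells 74.3 and 160 CPM, a ratio of 2.15 (1.37 to 3.42). The 4 intervals all lay above 1, and regulatory T cells had the highest level of the 4 classes in both libraries, though overlapping CD4 T cells. Shares of cells with a UMI followed in 3 of the classes after thinning to 1000 UMIs, at 1.46% and 4.76% of CD8 T, 2.86% and 13.6% of CD4 T, and 4.95% and 11.9% of regulatory T cells. In NK cells the unthinned shares of 20% and 37.0% became 6.72% and 6.17%, so the NK gap was not seen in shares at equal depth. In macrophages Cxcr4 was 118 and 183 CPM, a ratio of 1.55 (1.49 to 1.61), and in dendritic cells 24.5 and 93.5 CPM, a ratio of 3.81 (2.54 to 5.85). Neutrophils again went the other way, at 736 and 169 CPM. Mesenchymal cells, which served as background, held 1 and 0 UMIs. When cells holding both Xist and Y-linked RNA were left out, the log2 ratio of 1.14 in CD4 T cells was 0.89 and that of 1.05 in regulatory T cells was 0.75. In cells with Y-linked RNA only, these were 0.54 and 0.47.

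**Figure D2:**
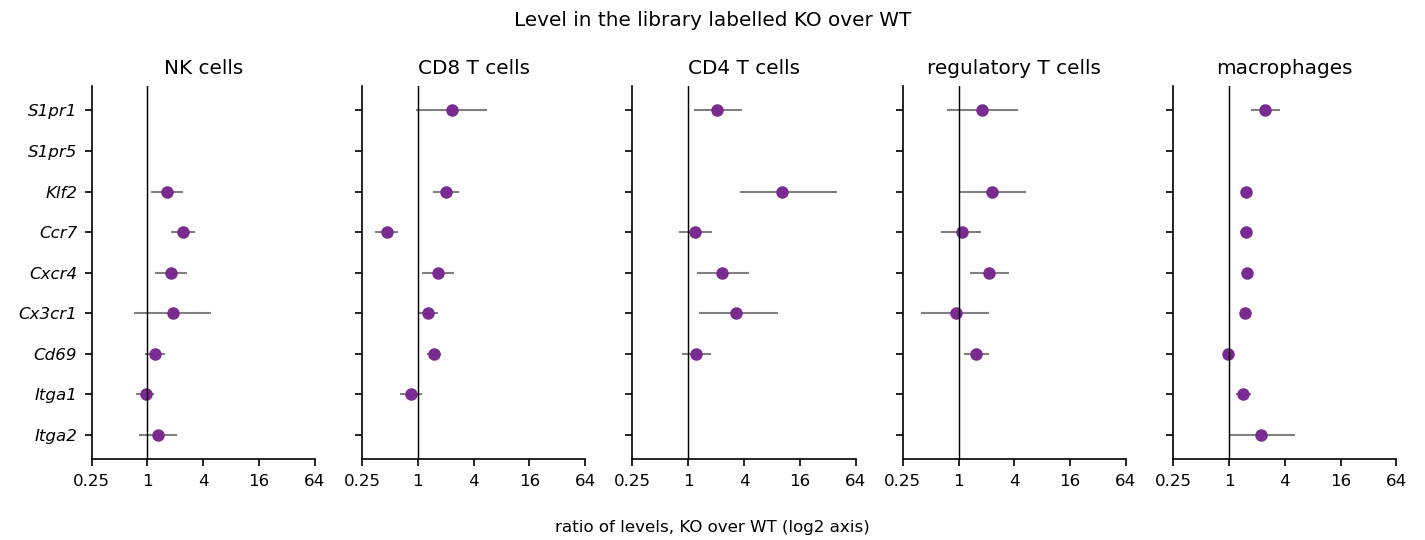
Ratio of the level in the library labelled KO to that in WT (horizontal axes, log2 scaled) for genes with at least 20 UMIs over both libraries, with exact conditional 95% intervals as lines. Klf2 and Cxcr4 lie above 1 in all 5 classes shown, and Ccr7 lies above 1 in NK cells and below 1 in CD8 T cells.

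Ccr7 (chr11:99144196-99155077) went opposite ways in NK and CD8 T cells, and the difference lay in few cells. In NK cells it was 70.1 and 170 CPM, a ratio of 2.42 (1.85 to 3.17). Yet only 4 of 240 WT cells and 4 of 81 KO cells held any, and 1 KO cell held 106 of the 116 UMIs. Of the Ccr7 UMIs of NK cells, 98.2% in WT and 94.8% in KO sat in 4 and 2 cells that also held at least 2 of 5 markers of mature dendritic cells. Mature dendritic cells were where Ccr7 was highest, at 2453 and 2742 CPM. Without those cells NK cells had 1.34 and 9.07 CPM, from 2 and 6 UMIs, and without the cell holding most in each library the log2 ratio of 1.22 turned to -1.12. The NK-gated cells therefore showed nearly no Ccr7 apart from cells with dendritic RNA.

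In CD8 T cells Ccr7 was 163 and 75.1 CPM, a ratio of 0.46 (0.36 to 0.59). Here 14 WT cells with at least 2 mature dendritic markers held 45.4% of the UMIs, against 1 such KO cell with none. Without them the levels were 93.7 CPM (83.3 to 105) and 75.9 CPM (59.4 to 95.6), and the log2 ratio moved from -1.07 to -0.29. The stricter limit on other lineages turned it to 0.52. The share of CD8 T cells with a UMI was 14.2% in WT and 18.9% in KO, the reverse of the CPM, and 7.12% and 6.80% after thinning, so no order is read from it. In CD4 T cells Ccr7 was 168 and 200 CPM (ratio 1.19, 0.81 to 1.74) and in regulatory T cells 99.8 and 108 CPM (1.08, 0.67 to 1.72). No difference was detectable in either at this depth. Of the KO UMIs of CD4 T cells, 35.5% lay in 2 cells with mature dendritic markers, and without such cells the direction turned, at 186 CPM (139 to 242) in WT and 132 CPM (94.6 to 180) in KO. Regulatory T cells without them had 74.99 CPM (51.9 to 105) and 108 CPM (74.1 to 151).

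**Figure D3:**
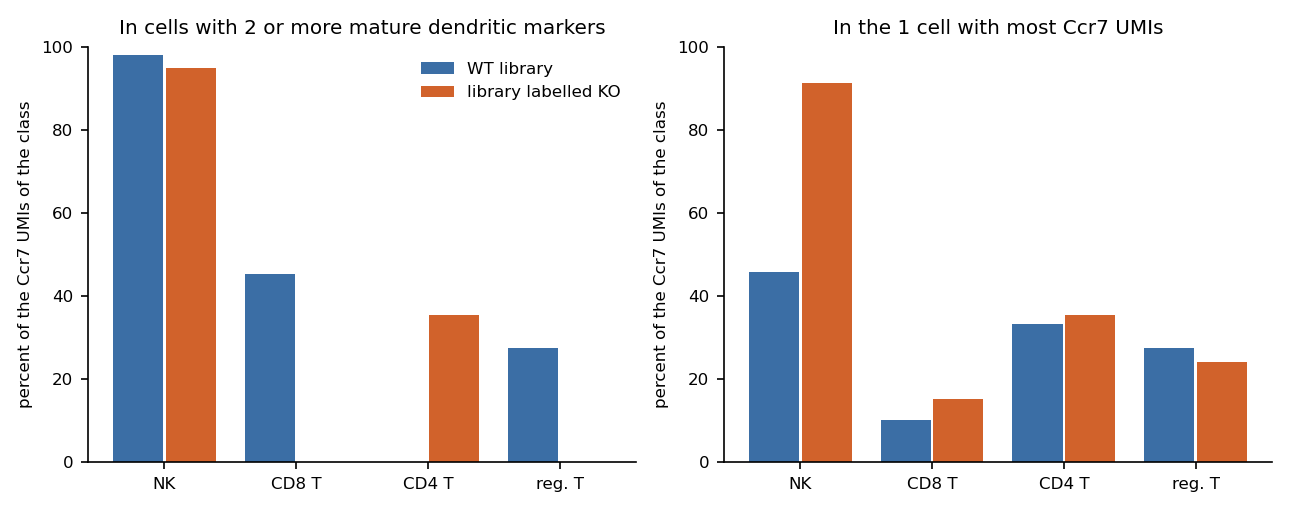
Percent of the Ccr7 UMIs of each class (vertical axes) that lie in cells with at least 2 of 5 mature dendritic markers (left) and in the single cell with most (right), for WT and the library labelled KO. In NK cells nearly all Ccr7 UMIs lie in such cells, 98.2% and 94.8%, and missing bars on the left stand for 0%.

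Some circulation genes were higher in both libraries in the CD8 T cells that held Ccr7. Only cells with at most 1 mature dendritic marker were compared, 76 with and 531 without Ccr7 in WT (median 4704 and 4448 UMIs) and 28 and 119 in KO (6884.5 and 5410). Tcf7, the factor TCF1 of naive and memory T cells, was at 50.9 against 9.69 CPM in WT and 72.3 against 6.87 CPM in KO. Il7r, the receptor that sustains resting T cells, was at 372 against 151 CPM and 457 against 166 CPM. These were the 2 of 13 circulation and quiescence genes at least 2-fold higher with Ccr7 in both libraries, where 0.321% of all 9956 genes were. At any size, 6 of the 13 were higher and 3 lower with Ccr7 in both libraries, and the others differed in direction between the libraries. No share of all genes is given beside these counts at any size, so nothing is read from them. Klrg1, a marker of terminal effector cells, was the 1 gene of the list at least 2-fold lower in both, beside 0.844% of all genes, but in KO from 0 and 5 UMIs, too few to separate the subsets. Among the trafficking genes S1pr1 was 3.73 times (1.11 to 11.3) and 5.76 times (1.46 to 26.8) as high with Ccr7, and Itga1 was 0.30 times (0.16 to 0.51) and 0.54 times (0.26 to 1.03). None of 14 measured residency genes passed 2-fold in both libraries, beside the same 0.321% of all genes upward and 0.844% downward. CD8 T cells with a Klf2 UMI, 77 in WT and 38 in KO, shared part of this. Tcf7 was 2.47 times (1.29 to 4.51) and 6.40 times (2.35 to 20.1) as high. It was the 1 gene of the 13 past 2-fold upward in both libraries, beside 0.267% of all genes, and 0 passed downward, beside 0.218%.

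In CD4 T cells S1pr1 went with some of the same genes. The 10 WT and 16 KO cells with S1pr1 had 1094 and 1194 CPM of Il7r, against 479 and 380 CPM in cells without. The chromatin organiser Satb1 was 3.45 times (2.24 to 5.22) and 3.04 times (2.15 to 4.29) as high, and Tcf7 3.01 times (0.96 to 8.09) and 4.18 times (1.69 to 10.7). These were 3 of 11 measured circulation genes, while 2.46% of all genes were at least 2-fold higher in both libraries. Klf2, the activator of S1pr1, was at 84.2 against 3.50 CPM in WT, from 3 and 1 UMIs, and at 244 against 92.8 CPM in KO, a ratio of 2.63 (1.33 to 5.14). Nr4a2, a gene induced by T cell receptor signals, had 1 UMI in WT and 2 in KO in the cells with S1pr1, against 46 and 35 in the others. Xcl1, a chemokine that attracts dendritic cells, had 1 and 0 against 43 and 8. These 2 of 13 residency genes were at least 2-fold lower in both libraries, beside 5.83% of all genes, but reached 20 UMIs only through the cells without S1pr1, so nothing is read from that count.

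Cx3cr1 (chr9:119901616-120069879) was a gene of macrophages and, among lymphocytes, of CD8 T cells. Macrophages had 258 and 386 CPM. CD8 T cells had 91.2 CPM (81.2 to 102) and 117 CPM (96.2 to 141), with a UMI in 29.8% and 41.2% of cells. NK cells had 7.71 and 14.6 CPM, in 4.17% and 12.4% of cells. From their macrophage markers, macrophage RNA would give 7.01 and 13.5 CPM in CD8 T cells and 5.82 and 10.3 CPM in NK cells. The CD8 T level was 13.0 and 8.66 times that background, whereas the NK level was 1.33 and 1.42 times it. The gates capped macrophage markers, which partly sets these shares, and the source of the NK and CD8 T levels was not tested. In CD8 T cells with Cx3cr1 the macrophage transcript C1qa was at 88.1 against 105 CPM in those without in WT, and at 90.1 against 112 CPM in KO. C1qa is 1 of the 8 macrophage markers capped by the gate. The other markers are not given for this split, so nothing is read from C1qa alone.

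Between libraries, Cx3cr1 in CD8 T cells differed by a ratio of 1.28 (1.02 to 1.60), beside 1.50 (1.46 to 1.54) in macrophages, and thinned shares were 10.03% and 9.52%. In CD4 T cells it was 21.8 and 70.8 CPM from 7 and 22 UMIs, a ratio of 3.25 (1.34 to 9.01), beside 8.81 and 16.1 CPM from macrophage RNA. Without a limit on other lineages that log2 ratio of 1.50 was 0.19. Regulatory T cells had 38.2 and 35.9 CPM, beside 8.56 and 21.5 CPM from macrophage RNA, or 4.47 and 1.67 times that background. In CD8 T cells with Cx3cr1, Lef1, a partner of TCF1, was 0.37 times (0.25 to 0.53) as high as in those without in WT and 0.45 times (0.25 to 0.76) in KO. Lef1 and Klrg1 made up the 2 of 13 circulation genes at least 2-fold lower in both libraries, beside 0.208% of all genes. In KO Klrg1 had 0 and 5 UMIs, too few to separate the subsets, so nothing is read from the count of 2. Of the 13 genes, 0 were 2-fold higher, beside 0.0396%. S1pr1 had 1 UMI in the 185 WT cells and 0 in the 61 KO cells with Cx3cr1, against 15 and 11 in the rest. The annotated span of Cx3cr1 overlaps Gorasp1, Csrnp1 and Xirp1 on its strand, so reads there could be assigned to either.

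Cd69 (chr6:129267325-129275436) was present in every lymphocyte class. It was 147 and 178 CPM in NK cells (ratio 1.22, 0.97 to 1.52) and 221 and 270 CPM in CD4 T cells (1.22, 0.88 to 1.70), where no difference was detectable. In CD8 T cells it was 182 and 273 CPM, a ratio of 1.50 (1.30 to 1.74), with thinned shares of 18.3% and 24.5% of cells. Regulatory T cells had 217 and 336 CPM, a ratio of 1.55 (1.17 to 2.06), and thinned shares of 16.8% and 23.9%. Macrophages, at 70.8 and 68.8 CPM, did not follow (0.97, 0.92 to 1.02). Within WT the level in NK cells lay below that of CD8 T cells, with intervals that did not overlap, and the 3 T cell classes overlapped each other.

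Itga1 (chr13:114953096-115101964) ranked NK cells above CD8 T cells in both libraries. NK cells had 219 CPM (197 to 244) in WT and 209 CPM (176 to 246) in KO, with a UMI in 52.5% and 58.0% of cells. CD8 T cells had 95.5 CPM (85.2 to 107) and 81.4 CPM (64.3 to 102), and CD4 T cells 15.6 and 19.3 CPM. Regulatory T cells held 1 UMI in each library, and macrophages 7.03 and 10.1 CPM. The ratio between libraries was 0.95 (0.78 to 1.16) in NK and 0.85 (0.66 to 1.10) in CD8 T cells, so no difference was detectable in the classes where Itga1 was highest. Reads in Pelo and Gm49395, which overlap Itga1 on the same strand, could be assigned to either. Itga2 (chr13:114833081-114932100) was 37.9 CPM (28.9 to 48.9) and 49.7 CPM (34.4 to 69.5) in NK cells, a ratio of 1.31 (0.83 to 2.03). A single KO cell held 35.3% of its NK UMIs there. CD8 T cells had 3.65 and 5.22 CPM, and CD4 T cells 37.3 and 16.1 CPM from 12 and 5 UMIs.

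Within NK-gated cells the integrins fell largely on different cells. In WT 117 cells had Itga1 only, 30 Itga2 only, 9 both and 84 neither, where 20.5 with both would be found if detection were independent. In the library labelled KO the numbers were 45, 10, 2 and 24. Cells with Itga1 only were deeper, with medians of 6964 and 8840 UMIs against 3279 and 4681.5 in cells with Itga2 only. The levels compared below are CPM within each subset.

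Some genes known from type 1 innate lymphoid cells were higher in the cells with Itga1. Gzmc, a granzyme, was at 12669 CPM with Itga1 and 321 CPM with Itga2 in WT, a ratio of 39.5 (28.8 to 55.8), and at 13093 and 22.6 CPM in KO. Inpp4b, a phosphatase, was 5.08 times (3.42 to 7.89) and 11.6 times (4.48 to 42.6) as high with Itga1. Cxcr6, a chemokine receptor of resident cells, had 41 UMIs with Itga1 and 0 with Itga2 in WT, where the interval of the ratio starts at 1.34, and 15 and 0 in KO, where it starts at 0.35. Tmem176b had 155 and 0 UMIs in WT, with an interval from 5.25, and 35 and 1 in KO, a ratio of 3.46 (0.58 to 141). Of a 12-gene type 1 innate lymphoid list, 10 had at least 20 UMIs, most of them through the larger Itga1 subset, so their number is no support. The interval lay above 1 in both libraries for 3 of them, Gzmc, Inpp4b and Ctla2a, and in WT only for 4, Tnfsf10, Cxcr6, Tmem176a and Tmem176b. Tcf7 went the other way in WT, at 47.0 and 220 CPM, and stood at 58.0 and 22.6 CPM in KO, the last from 1 UMI.

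Several genes known from mature conventional NK cells were higher in the cells with Itga2. Klra4, a Ly49 receptor, was at 86.5 CPM with Itga1 and 473 CPM with Itga2 in WT, a ratio of 5.47 (3.82 to 7.78), and at 141 and 744 CPM in KO, a ratio of 5.29 (3.36 to 8.19). Zeb2, a factor of terminal maturation, was 5.65 times (3.85 to 8.24) and 3.14 times (1.31 to 6.80) as high with Itga2. Eomes, the factor that sets NK cells apart from type 1 innate lymphoid cells, was 4.03 times (2.46 to 6.46) in WT and 1.41 times (0.54 to 3.14) in KO. Of the 10 maturation genes, 6 were higher with Itga2 in both libraries at any size, beside 2057 of all 7398 genes. At least 2-fold higher in both were 4 of the 10, Klra4, Zeb2, Itgam and Cma1, beside 3.23% of all genes. Itgam rested on 4 and 3 UMIs in the cells with Itga2, and its WT interval of 0.72 to 11.0 covered 1. Cma1 rested on 6 and 4 UMIs there. Klra8 went opposite ways, at 96.1 and 405 CPM in WT and 170 and 90.2 CPM in KO, the last from 4 UMIs. Gzmb, Prf1 and Klrg1 were each higher with Itga1 in both libraries. Gzmb was 1.37 times (1.10 to 1.71) and 1.07 times (0.80 to 1.46) as high, and Prf1 1.11 times (0.86 to 1.45) and 1.14 times (0.77 to 1.76). Klrg1 was 1.24 times (0.50 to 3.98) and 1.93 times (0.50 to 16.5), in KO from 39 and 2 UMIs.

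Klf2 and Cxcr4 were also higher in the cells with Itga2. Klf2 was at 21.4 CPM with Itga1 and 92.9 CPM with Itga2 in WT, a ratio of 4.35 (1.88 to 9.52), and at 26.8 and 519 CPM in KO, a ratio of 19.4 (9.25 to 42.7). Cxcr4 was 4.19 times (1.64 to 9.93) and 10.1 times (4.96 to 20.6) as high with Itga2. Cd69 was 1.47 times (0.85 to 2.42) and 2.53 times (1.39 to 4.35). In the KO library these Itga2 values rest on 10 cells, with 23 UMIs of Klf2 and 18 of Cxcr4. Residency genes were mixed: Rgs1 and Rgs2, regulators of G protein signalling, were higher with Itga1, and Nr4a1 and Nr4a2 were higher with Itga2 in both libraries.

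**Figure D4:**
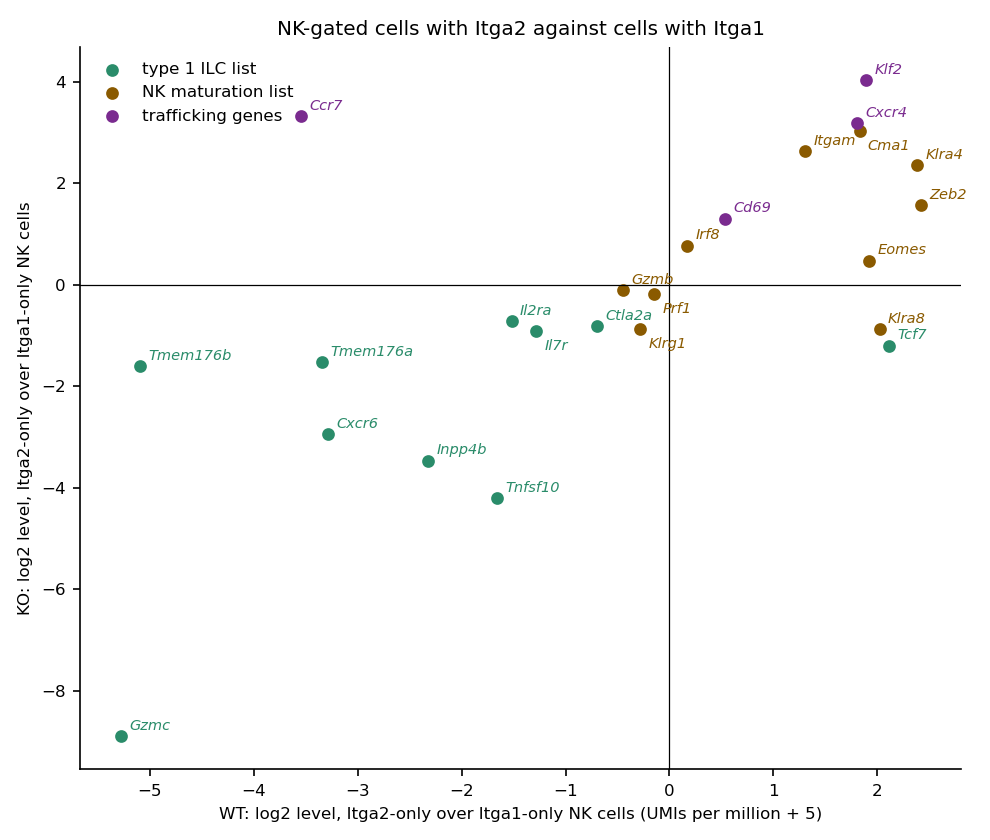
Each point is a gene with at least 20 UMIs, placed by its log2 level in NK-gated cells with Itga2 only over cells with Itga1 only, after adding 5 CPM, in WT (horizontal) and in the library labelled KO (vertical). Most type 1 innate lymphoid genes lie at the lower left, in KO often from 0 or 1 UMI in the 10 cells with Itga2 only. Klra4, Zeb2, Cma1, Klf2 and Cxcr4 lie at the upper right, Cma1 from 6 and 4 UMIs in the cells with Itga2 only.

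Genes with the most similar pattern were sought over 20 points, the 10 gated classes in each library, among 8013 genes reaching 50 CPM in a class. The measure was Pearson's correlation of log2 level with 5 CPM added, given as a description, since the points of a library share its depth and its free RNA. S1pr1 was closest to Cpm and Slamf6 (both 0.91) and Tox2 (0.88), and Klf2 to Rflnb and Gm28809 (both 0.86) and Cars (0.85). Ccr7 was closest to Spint2 (0.93), Tmtc2 and Arap2 (both 0.88). Cxcr4 was closest to Nfkbid and Srgn (both 0.87) and Xylt1 (0.84), and Cx3cr1 to Tnf (0.84), Cndp2 and Csf1r (both 0.83). Cd69 was closest to Tagap and AI662270 (both 0.91) and Sash3 (0.90), and Itga1 to the NK genes Styk1 and Gzma (both 0.90) and Klre1 (0.88). Klre1 is a marker of the NK gate and Csf1r of the macrophage gate, so the likeness to them partly restates the gates. S1pr5 and Itga2 stayed under 50 CPM in every class and were not matched.

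Counted together, few of the 9 genes passed 2-fold between the libraries, with 5 CPM added and at least 20 UMIs. In NK cells 7 of the 9 were measured and 1 passed upward, Ccr7, beside 0.721% of all 8457 genes, and 0 downward, beside 1.34%. In CD8 T cells 7 were measured, 0 passed upward, beside 0.445% of genes, and 1 downward, Ccr7, beside 1.45%. In CD4 T cells 6 were measured and 3 passed upward, Klf2, Cxcr4 and Cx3cr1, beside 3.05%, with 0 downward, beside 4.58%. S1pr1 stood just under the limit there on the scale with 5 CPM added, and its plain ratio was 2.07 (1.20 to 3.68). In regulatory T cells 6 were measured and 2 passed upward, Klf2 and Cxcr4, beside 1.83%, with 0 downward, beside 4.96%. In macrophages 8 were measured and 0 passed either way, beside 0.274% upward and 0.0561% downward. The median log2 ratio over all 9 genes was 0.35 in NK, 0.34 in CD8 T, 0.29 in CD4 T, 0.31 in regulatory T cells and 0.37 in macrophages. Those 9 include genes under 20 UMIs, such as S1pr5, which had no UMI in CD4 T and regulatory T cells. The medians over all measured genes, which leave such genes out, lay between -0.04 and 0.00 in these classes. The median of the 9 genes was above that of all genes in macrophages as well as in the 4 lymphocyte classes. Because the sets are unlike, the size of the gap is not compared between classes.

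Other genes of circulation and residency were counted by the same 2-fold rule. Of 13 circulation and quiescence genes, 12 were measured in NK cells with Il7r alone past 2-fold, at 32.8 and 79.0 CPM, beside 0.721% of all genes upward. All 13 were measured in CD8 T cells and none passed it, beside 0.445% of all genes upward and 1.45% downward. In CD4 T cells Klf3, a relative of Klf2, was at 15.6 and 48.3 CPM and Klrg1 at 103 and 41.9 CPM, 1 upward and 1 downward of 11, beside 3.05% and 4.58% of all genes. In regulatory T cells Ly6c2 was at 55.2 and 3.26 CPM, the 1 of 11 past 2-fold, beside 4.96% of all genes downward. It rested on 26 and 1 UMIs in 2.97% and 1.49% of cells, too few cells to read as a shift of the class. Of 18 residency genes, none passed in NK or regulatory T cells, with 13 measured in each. The shares of all genes there were 0.721% upward and 1.34% downward in NK cells, and 1.83% and 4.96% in regulatory T cells. Ahr, the aryl hydrocarbon receptor that sustains gut lymphocytes, was higher in CD8 T cells, at 21.3 and 55.3 CPM, 1 of 15 beside 0.445% of all genes. It was also higher in CD4 T cells, at 28.0 and 77.3 CPM, with Cxcr6 at 159 and 325 CPM, while Xcl1 was at 137 and 25.8 CPM. These were 2 upward and 1 downward of 13, beside the same 3.05% and 4.58%. Among 12 integrin subunits only Itga6 in CD4 T cells, at 21.8 and 64.4 CPM, and Itgb3 in regulatory T cells, at 42.5 and 111 CPM, passed, 1 of 9 and 1 of 10 measured beside 3.05% and 1.83% of all genes upward. The ligands Cxcl12, Cx3cl1, Ccl19 and Ccl21a did not reach 20 UMIs in any of the lymphocyte classes.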

How the data were processed

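Single-cell RNA of 2 mouse libraries, 1 WT and 1 KO, was analysed from the deposited raw UMI counts per gene and barcode. Per the file headers, counting was done with Cell Ranger 8.0.1, and mm10 and Seurat 3 are named in the submitters' processing notes. Per the labels' protocols a microwell chip with barcoded magnetic beads was used. The matrices hold 8800 WT and 6573 KO barcodes with 85367638 and 62465176 UMIs, so counting error is small for macrophages and wide for the smaller lymphocyte classes.

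Barcodes with at least 500 UMIs, 200 genes and at most 25% mitochondrial UMIs were kept, which removed 0 and 1060. Scrublet (scanpy 1.11.5) marked 0 and 1 barcodes as doublets on its automatic threshold and had not worked, so the highest 5% of scores (457 and 319) were left out. Gates asked for at most 3 of 8 macrophage, 2 of 5 mesenchymal and 1 of 4 B cell markers. NK cells had no Cd3 gene and at least 2 of 5 NK markers. T cells had at least 2 of 3 Cd3 genes, CD8 T cells Cd8a or Cd8b1 without Cd4, CD4 T cells Cd4 without Cd8, and regulatory T cells Foxp3.

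Counts were summed per library and class as UMIs per 1000000 (CPM), with exact Poisson 95% intervals, exact binomial intervals for the shares and exact conditional intervals for ratios, all for counting error only. Log2 ratios have 5 CPM added, and a gene was counted as past 2-fold with at least 20 UMIs over both libraries. For shares at equal depth, cells were thinned to 1000 UMIs. A count of 0 allows 3 counts. Scripts were tested on simulated data. The 9 genes were named whatever their value, list genes where past 2-fold, and like genes as the 3 with the highest correlation. 1 gene of the circulation list is not reported here. The genes, lists and gates were chosen with earlier results of these data known. The subsets by Ccr7, Klf2, Cx3cr1 and S1pr1, the macrophage background and 2 alternatives were added after seeing the data. The alternatives changed filters, gates, scaling, pseudocount, thinning and sex type. The authors' deposited counts use 55357 features, and Python 3.11.15 and scipy 1.17.1 were used.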

Additional observations from a re-analysis of the deposited data

Results flagged for a closer look

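The log2 ratio of Ccr7 between the libraries, KO over WT, was 1.22 in NK cells and -1.07 in CD8 T cells, opposite directions under the same labels. The difference between the classes was not tested, since each genotype is 1 library. In NK cells 1 cell under the KO label held 106 of 116 Ccr7 UMIs, and in CD8 T cells 14 WT cells with mature dendritic markers held 45.4% of the WT UMIs. The part of those cells in the opposite directions was not tested beyond the values without them.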

How the results depend on the processing

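Each class was recomputed with 17 other settings, of which 1, fewer Cd3 genes, does not apply to NK cells, and with 2 added after seeing the data. The median log2 ratio of the 9 genes moved in 2 cases: to -0.33 in NK cells under a stricter limit on other lineages (0.35 as reported), which left 132 and 29 cells, and to 0.00 in CD8 T cells thinned to 1000 UMIs (0.34 as reported). Of 36 results for a gene in a class, 11 kept their sign in all of these. Called values reversed for 3. Ccr7 in NK cells (1.22) became -2.37 with stricter positive markers, -4.04 in cells with Y-linked RNA only, -1.43 with KO cells holding Xist only, -1.90 without cells holding both, and -1.12 without the cell with most UMIs. Ccr7 in CD8 T cells (-1.07) became 0.52 under the stricter limit on other lineages. Klf2 in regulatory T cells (1.06) became -2.56 in cells with Y-linked RNA only. Apart from the cells left out, the cause was not tested. No paired analysis was possible because each genotype is 1 library.

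Depth limits the smallest classes: with 70 and 66 CD4 T cells, a gene without a UMI can still stand at 9.33 and 9.66 CPM, the level of 3 UMIs. The intervals of levels and ratios hold neither the spread between animals nor that between cells, since each UMI is counted as independent. They can be too narrow where few cells hold most UMIs of a gene. Genotype, sex mixture and library cannot be told apart.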
